A study of Mus musculus with 2 samples.

Results

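Ly6c1-high Maf-negative LSECs are liver sinusoidal endothelial cells of the Maf LSEC-KO library in which no Maf mRNA was captured and Ly6c1 mRNA made up at least 400 of every 1000000 unique molecular identifiers (UMIs, each marking 1 captured mRNA molecule). They were chosen from droplets, identified by barcodes, that held at least 1500 UMIs and 750 genes, at least 2 UMIs of the endothelial genes Pecam1, Cdh5 and Ptprb together, and none of Ptprc, Adgre1, Cd79a and Dcn, which mark blood cells, macrophages, B cells and fibroblasts. Droplets with a UMI of Vwf, a gene of larger vessels, or of the proliferation genes Mki67 and Top2a were left out. Of 1543 Maf-negative LSECs so gated, 664 (43%, 95% exact interval 40.5 to 45.5) were Ly6c1-high and 879 were Ly6c1-low. The series holds 12755 barcodes in all, 7091 in the Maf LSEC-KO and 5664 in the control library.

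Single-cell RNA-seq of CD146-selected liver cells asked how LSECs change when the transcription factor c-Maf is lost. Maf LSEC-KO mice carried Clec4g-iCre tg/wt with Maf fl/fl, and controls, labelled WT, were littermates with Clec4g-iCre wt/wt and 1 or 2 floxed Maf alleles. The iCre is driven by Clec4g, a gene of LSECs, and excises from late fetal life onwards, so endothelial cells of other vessels and LSECs that escaped excision keep Maf. Each genotype was 1 library from a pool of 3 mice, whose ages are not given for this assay. Genotype and library therefore cannot be told apart, barcodes of 1 library are not replicates, and no test was made. Intervals are exact at the 95% level and cover counting error only.

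LSECs line the liver sinusoids, take up waste through scavenger receptors such as STAB2, LYVE1 and CD32 (Fcgr2b), and lack a continuous basement membrane. When they lose these traits and gain those of capillary endothelium, such as CD34, the process is called capillarization. Ly6c1 encodes a small GPI-anchored surface protein of the Ly6 family that is abundant on the capillary and arterial endothelium of many mouse organs, and its neighbour Ly6a encodes Sca-1, which interferon induces in many cells.

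In the members, Ly6a and 16 of 29 interferon-stimulated genes were at least 1.5-fold higher than in the Ly6c1-low LSECs of the same library, as were 5 of 12 MHC genes. Ly6a reached 5675 UMIs per 1000000 (CPM, counted over all barcodes of a set and leaving out mitochondrial and ribosomal protein genes from the total) against 2574 CPM, and the antiviral regulator Irf7 reached 418 against 188 CPM. Lyve1, the apelin receptor Aplnr and 3 of 17 immediate early and heat shock genes, among them Egr1 and Dnajb1, were at least 1.5-fold lower. Both sets were alike in having almost none of the sinusoidal nuclease Dnase1l3, with 9.4 and 8.88 CPM against 3652 CPM in control LSECs.

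Ly6c1 lies on mouse chromosome 15 (GRCm38, chr15:75044018-75048830, minus strand) in a cluster that also holds Ly6a (chr15:74994877-74998031, minus strand), Ly6e (chr15:74955051-74959905, plus strand) and the monocyte gene Ly6c2 (chr15:75108158-75111970, minus strand). Ly6c1 and Ly6c2 are near copies, and of the 795 stretches of 50 bases in the Ly6c1 transcript, 31.7% also occur in Ly6c2 transcripts. Within the last 500 bases, where 3′ libraries read, the share was 20%. Ly6c2 had 8 UMIs in the members, 8 in Ly6c1-low and 10 in control LSECs, but how reads common to both genes were assigned is not known, so their split is uncertain. The promoters of both genes are shown because Ly6c1 defines the set, and that of Rsad2 because this interferon-induced antiviral enzyme was among the genes that followed Ly6c1. They span 250 bases before to 50 bases after the start in RefSeq sequence of GRCm38.p6, each read on the minus strand, at chr15:75048788-75049087 for Ly6c1, chr15:75111922-75112221 for Ly6c2 and chr12:26456403-26456702 for Rsad2. Capitals mark motif matches.
Ly6c1: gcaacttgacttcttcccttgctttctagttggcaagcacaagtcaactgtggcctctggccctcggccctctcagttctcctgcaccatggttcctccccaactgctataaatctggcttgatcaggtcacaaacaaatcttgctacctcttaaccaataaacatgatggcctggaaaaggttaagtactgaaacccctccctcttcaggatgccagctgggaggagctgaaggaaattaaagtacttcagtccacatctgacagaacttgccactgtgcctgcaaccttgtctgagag
Ly6c2: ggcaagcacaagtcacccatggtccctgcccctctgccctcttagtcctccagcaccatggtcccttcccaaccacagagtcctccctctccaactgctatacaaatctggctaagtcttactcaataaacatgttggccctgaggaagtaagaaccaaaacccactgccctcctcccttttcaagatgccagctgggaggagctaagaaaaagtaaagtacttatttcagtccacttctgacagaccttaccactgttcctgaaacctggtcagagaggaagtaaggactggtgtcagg
Rsad2: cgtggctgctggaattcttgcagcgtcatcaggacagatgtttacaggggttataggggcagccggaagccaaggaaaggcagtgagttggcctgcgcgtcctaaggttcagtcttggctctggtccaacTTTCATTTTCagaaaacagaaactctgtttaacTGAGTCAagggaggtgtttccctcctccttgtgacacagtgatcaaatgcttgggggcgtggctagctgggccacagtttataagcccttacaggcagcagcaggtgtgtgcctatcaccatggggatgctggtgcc
Over their alignable part, 208 of 266 bases (78.2%) of the Ly6c1 and Ly6c2 promoters were identical. Searched on both strands were the interferon response element core (GAAA, any 2 bases and GAAA again), the STAT element TTCNNNGAA, the AP-1 site TGANTCA and the MAF half-site TGCTGA, which occurred in 3.49%, 8.47%, 7.93% and 19.1% of 27025 mouse promoters of this length. Rsad2 held the first, on the opposite strand as TTTCATTTTC, and the AP-1 site TGAGTCA. No match lay in this window of Ly6c1, Ly6c2, Irf7, Plac8 or Cd34, and Ly6a was not in the promoter table.

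Ly6c1 itself chose the members and is given as a description. Its level per 1000000 of all UMIs had a lower quartile of 543, a median of 803, an upper quartile of 1219 and a maximum of 3903 in the members, and in UMIs the median was 10 and the maximum 80 per barcode. The distribution ran across the limit without a gap. Just inside lay barcodes at 402, 402, 404, 404 and 404 per 1000000 and just outside barcodes at 399, 398, 397, 395 and 394, and 123 members lay between 400 and 500 while 110 Ly6c1-low LSECs lay between 300 and 400. In shallow barcodes the limit is met by very few molecules. There were 19 members with 1 Ly6c1 UMI, all of at most 2459 total UMIs, and 33 with 2, while 549 held at least 5. Of the Ly6c1-low LSECs, 350 held no Ly6c1 UMI.

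**Figure D1:**
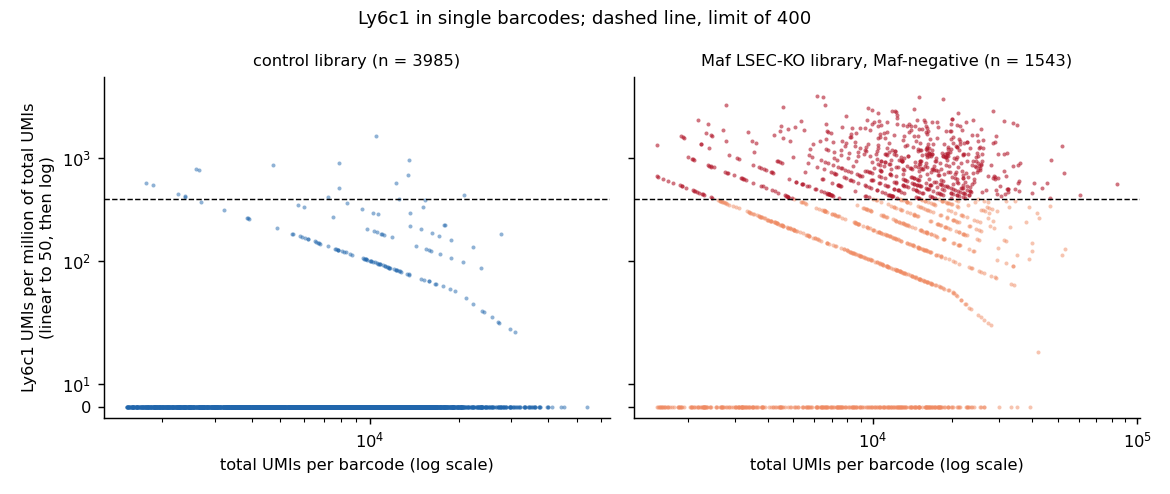
Ly6c1 UMIs per 1000000 against total UMIs of each barcode (log scale), for Maf-negative LSECs of the Maf LSEC-KO library and for control LSECs, with the limit of 400 as a dashed line. The 664 members lie above the line at every depth and continue into the 879 barcodes below it, whereas only 16 control LSECs lie at or above it.

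In the control library a Ly6c1 UMI was found in 132 of 3985 LSECs (3.31%), at 8.23 CPM over the whole set, and 16 control LSECs lay at or above the limit. No Maf UMI was captured in 25 control LSECs, and 0 of these 25 reached the Ly6c1 limit. With 16 of all 3985 control LSECs there, 25 barcodes are too few to show a difference. Kupffer-like droplets, which should lack Ly6c1 and were taken by at least 10 UMIs of macrophage markers, served as a measure of free RNA, and a Ly6c1 UMI was seen in 8.45% of 71 such droplets in the Maf LSEC-KO library at a median of 2952 UMIs. In members thinned at random to 3000 UMIs a Ly6c1 UMI remained in 93.7%, and in Ly6c1-low LSECs so thinned in 31.2%. Because the rule chose these sets by their Ly6c1 level, both shares largely follow from it. They are given as a description and cannot serve as a test against the Kupffer-like droplets. The part of free RNA in the Ly6c1 counts was not tested.

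The members were somewhat deeper than the sets they are compared with. Median UMIs were 13199 in the members, 11254 in Ly6c1-low and 8376 in control LSECs, and the shallowest barcodes had 1517, 1521 and 1514 UMIs. The median share of mitochondrial UMIs was 3.49% in the members, 4.52% in Ly6c1-low and 4.29% in control LSECs. Ribosomal protein genes took 17.6% and 16.7% in both Maf-negative sets but 7.15% in control LSECs. All 12 pan-endothelial genes, of which the gate used Pecam1, Cdh5 and Ptprb, were within 1.5-fold of Ly6c1-low LSECs and summed to 13561 against 13461 CPM, a likeness to which the common gate contributes. Only 10 barcode sequences occurred in both libraries and none of them was a member.

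The markers given for the set beside Ly6c1 were Ly6a and Cd34, neither of which the rule used. Ly6a was captured in 662 of the 664 members, with quartiles of 3190, 5079 and 7388 CPM over single barcodes, against 1030, 1968 and 3311 CPM in Ly6c1-low LSECs, so the middle ranges overlapped only slightly. Summed over the sets, Ly6a was at 5675 (5620 to 5729) CPM in the members, 2574 in Ly6c1-low, 2275 in Maf LSEC-KO LSECs that held at least 2 Maf UMIs (n = 246) and 1115 CPM in control LSECs. The log2 ratio was 1.14 (1.12 to 1.16) over Ly6c1-low and 2.35 over control LSECs.

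Cd34, a sialomucin of capillary endothelium, separated the genotypes far more than it separated the members from Ly6c1-low LSECs. It was at 467 CPM in the members, 349 in Ly6c1-low, 181 in Maf-positive Maf LSEC-KO LSECs and 28.2 in control LSECs, with log2 ratios of 0.42 (0.35 to 0.49) over Ly6c1-low and 4.05 over control LSECs. Single members had quartiles of 243, 425 and 610.2 CPM, and Ly6c1-low LSECs 102, 284 and 472, so the ranges overlapped widely.

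Both mRNAs together were captured in 597 of 664 members (89.9%, 87.4 to 92.1), in 77.7% of Ly6c1-low LSECs, in 41.1% of Maf-positive Maf LSEC-KO LSECs and in 12.9% of control LSECs. After thinning of each barcode to 3000 UMIs, which left out 48 members and 85 Ly6c1-low, 22 Maf-positive and 482 control LSECs, the shares were 60.1% (56.1 to 64), 45.1%, 21% and 5%. In the Kupffer-like droplets of the Maf LSEC-KO library, whose median depth was about that of the thinned barcodes, Cd34 was seen in 15.5%, against 60.7% of thinned members, and Ly6a in 77.5%, against 99.2%. Ly6a stood at 1026 CPM in those droplets, and whether free RNA or the macrophages gave it was not tested.

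**Figure D2:**
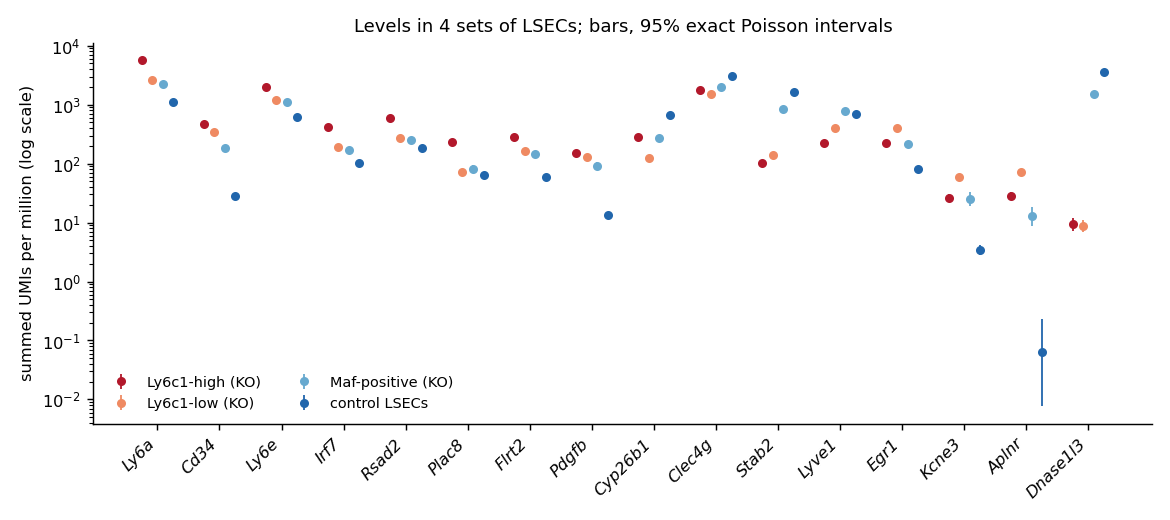
Summed UMIs per 1000000 (log scale) with 95% exact Poisson intervals for 16 genes in Ly6c1-high (n = 664), Ly6c1-low (n = 879) and Maf-positive (n = 246) LSECs of the Maf LSEC-KO library and in control LSECs (n = 3985). Ly6a, Ly6e, Irf7, Rsad2 and Plac8 are highest in the members, Lyve1, Egr1, Kcne3 and Aplnr are lower in them than in Ly6c1-low LSECs, and Stab2 and Dnase1l3 are low in both.

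Over 7310 genes with at least 20 CPM in the members or in Ly6c1-low LSECs, the log2 ratio had a median of −0.01, with 5% of genes below −0.39 and 5% above 0.37. At least 1.5-fold higher in the members were 136 genes (1.86%) and at least 1.5-fold lower were 114 genes (1.56%). Apart from Ly6c1, which the rule used, the largest ratios belonged to 2 kinds of gene, those spread over many members and those held by few.

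Of the gene lists examined, that of interferon-stimulated genes had the most genes at least 1.5-fold higher in the members. Of 29 measured, 16 were at least 1.5-fold higher in the members and 0 lower, with a median log2 ratio of 0.61 against −0.01 over all genes. Their sum was 9698 CPM in the members, 6410 in Ly6c1-low, 6243 in Maf-positive Maf LSEC-KO and 5412 in control LSECs. Irf7, the transcription factor that amplifies interferon production, was captured in 545 members and reached 418, 188 and 104 CPM in members, Ly6c1-low and control LSECs, a log2 ratio of 1.15 (1.07 to 1.24) over Ly6c1-low LSECs. Rsad2 (viperin) reached 599, 274 and 185 CPM in the same order, and the nucleic acid sensor Zbp1 124, 52.2 and 24.1 CPM. The ubiquitin-like Isg15 reached 607, 330.5 and 127 CPM. In each of these genes the members were highest and control LSECs lowest, while Maf-positive Maf LSEC-KO LSECs, at 169.6 CPM of Irf7 and 256 CPM of Rsad2, lay near the Ly6c1-low LSECs.

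Of 12 genes of antigen presentation by MHC proteins, 5 were at least 1.5-fold higher and 0 lower, with a median log2 ratio of 0.48. The light chain gene B2m, at 3882 against 2878 CPM (log2 ratio 0.43), did not pass. The classical class I chain H2-D1 was at 2776 CPM against 1798 in Ly6c1-low and 1849 in control LSECs, and the non-classical H2-Q7 at 725 against 434 and 335 CPM. The peptide transporter Tap1, H2-T23 and the class II chain H2-Ab1 were also past 1.5-fold, at log2 ratios of 0.62, 0.63 and 0.71. For H2-D1 the members stood apart from both other sets, which differed little from each other.

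The Ly6 genes near Ly6c1 were mostly below the filter of 20 CPM, with 4 of 17 listed genes past it. Of these 4, besides Ly6c1, Ly6a and Ly6e were past 1.5-fold. Ly6e was at 1959 CPM in the members, 1181 in Ly6c1-low and 609 in control LSECs, a log2 ratio of 0.73 (0.69 to 0.77) over Ly6c1-low LSECs.

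**Figure D3:**
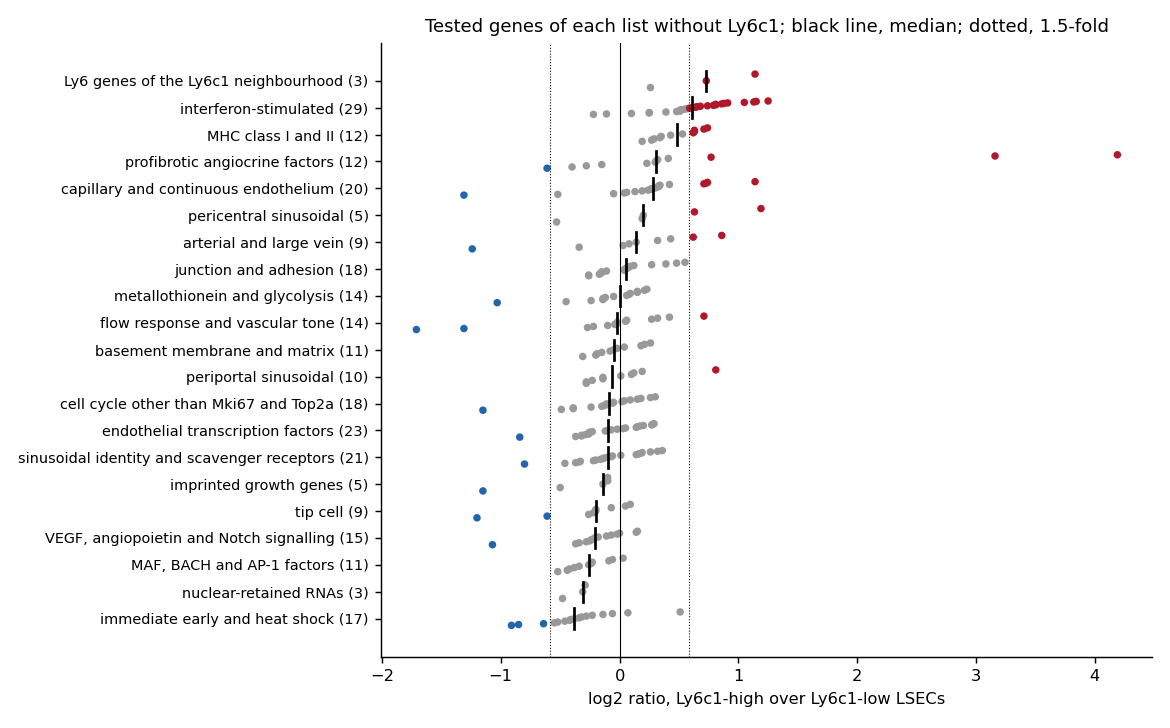
Log2 ratio of Ly6c1-high over Ly6c1-low LSECs for the measured genes of each gene list except Ly6c1, with the number of genes in parentheses, the median as a black line and 1.5-fold as dotted lines. The interferon-stimulated list has its median at 0.61 and 16 of 29 genes past 1.5-fold, whereas sinusoidal identity genes centre at −0.10 and immediate early and heat shock genes at −0.38.

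Among 20 genes of capillary and continuous endothelium, counted without Ly6c1 because the rule used it, 4 were at least 1.5-fold higher and 1 lower, with a median log2 ratio of 0.29. The 4 were Ly6a and Ly6e, already described, and Cav1 and Ednrb. Cav1, the coat protein of caveolae, was at 157 CPM against 94.5 in Ly6c1-low and 42.2 in control LSECs, and Ednrb, a receptor for endothelin, at 140.4 against 85.8 and 40.3 CPM. Under 14 alternative settings the log2 ratio over Ly6c1-low LSECs was 0.50 to 1.04 for Cav1 but 0.05 to 1.04 for Ednrb, whose excess thus depended on the setting. The diaphragm protein gene Plvap went the other way with 279 against 399.5 CPM, a log2 ratio of −0.52 that did not pass 1.5-fold. Aplnr, the receptor for apelin, was at 28.6 against 71 CPM, a log2 ratio of −1.31 (−1.55 to −1.08).

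Of 9 genes of arteries and large veins, 2 were at least 1.5-fold higher and 1 lower, with a median log2 ratio of 0.14. Gja4, the connexin 37 gene of arterial endothelium, was at 145 CPM in the members, 80.1 in Ly6c1-low and 96.7 in control LSECs, and the tetraspanin gene Cd9 at 456 against 296 CPM in Ly6c1-low LSECs. The lower gene was the venular chemokine receptor Ackr1, with 9.68 against 22.9 CPM, a log2 ratio of −1.24. Cyp26b1, which degrades retinoic acid, was at 283 against 124 CPM, a log2 ratio of 1.19 (1.08 to 1.30), while control LSECs were above both at 657 CPM. Thbd (thrombomodulin), the other gene of the pericentral list past 1.5-fold, was at 36.8 against 23.7 CPM. Of the 5 pericentral genes measured these 2 were at least 1.5-fold higher and 0 lower. Kit went the other way without passing, at 43.5 against 62.9 CPM, a log2 ratio of −0.53. Wnt2 and Plpp1 had log2 ratios of 0.19 and 0.20. Of 10 periportal genes only Cxcl9, itself interferon-induced, passed with 727 against 414 CPM.

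Sinusoidal identity genes had a median log2 ratio of −0.10 between the members and Ly6c1-low LSECs. Of 21 only 1 passed 1.5-fold, where 1.86% of all genes were higher and 1.56% lower. The exception was Lyve1, the hyaluronan receptor, with 228 CPM in the members, 397 in Ly6c1-low, 795 in Maf-positive Maf LSEC-KO and 708 in control LSECs and a log2 ratio of −0.80 (−0.88 to −0.71) over Ly6c1-low LSECs. Stab2 was at 103 against 142 CPM and Fcgr2b at 147 against 169 CPM. Clec4g, the lectin gene whose promoter drives the Cre, was at 1803 against 1508 CPM, Oit3 at 1390 against 1451 and the LSEC transcription factor gene Gata4 at 226 against 205 CPM. These last 3 genes thus remained at similar levels in both sets, and in control LSECs they were at 3063, 1452 and 253 CPM.

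Of 17 immediate early and heat shock genes, 3 were at least 1.5-fold lower and 0 higher, with a median log2 ratio of −0.38. The zinc finger gene Egr1 was at 224 CPM against 402 in Ly6c1-low LSECs, a log2 ratio of −0.85, the chaperone Hspa1b at 207 against 323, and its partner Dnajb1 at 42.7 against 80.1 CPM. The small heat shock gene Hspb1 went the other way without passing 1.5-fold, at 699.6 against 491 CPM, a log2 ratio of 0.51 (0.45 to 0.57). Control LSECs held 81 CPM of Egr1, 117 of Hspa1b and 40.8 of Dnajb1. The members were thus between Ly6c1-low and control LSECs for Egr1, Hspa1b and Dnajb1, and their mitochondrial share was lower too. The part of either in the other was not tested.

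Of 9 tip cell genes, 2 were at least 1.5-fold lower and 0 higher. Kcne3, a potassium channel subunit, was at 26 CPM in the members and 59.9 in Ly6c1-low LSECs, and Esm1, a secreted proteoglycan of sprouting vessels, at 92.7 against 142 CPM. A Kcne3 UMI was present in 94 members (14.2%) and in 174 Ly6c1-low LSECs (19.8%). Both genes were nevertheless above control LSECs, which had 3.42 CPM of Kcne3 and 13.8 CPM of Esm1. The metallothionein gene Mt1 was at 22.2 against 45.4 CPM, with 460.1 CPM in control LSECs. The potassium channel subunits Abcc9 and Kcnj2 were at 31.8 against 96.9 and 11 against 36 CPM.

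In several lists few or no genes passed 1.5-fold, where 1.86% of all genes were higher and 1.56% lower. None of 18 junction, 11 matrix and 11 MAF, BACH and AP-1 genes passed 1.5-fold. Of 23 endothelial transcription factor genes only Lyl1 did, with 12.7 against 22.7 CPM. Of 15 genes of VEGF, angiopoietin and Notch signalling only Vegfa did, with 9.95 against 20.9 CPM. These 15 genes were nevertheless mostly lower in the members, with 2 above 0 and a median log2 ratio of −0.21. The 11 MAF, BACH and AP-1 genes had 1 above 0 and a median of −0.26. Summed over all listed genes, the former list was at 7656 against 8693 CPM and the latter at 3259 against 3818 CPM. The growth inhibitor Cdkn1c was the only one past 1.5-fold of 18 further cell cycle genes and of 5 imprinted growth genes, with 11.4 against 25.4 CPM.

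Among the 12 genes with the largest ratios, Plac8, Pi16, Cfb, Plat and Apol9a were spread over many members. Plac8, which encodes a cysteine-rich protein common in monocytes and plasmacytoid dendritic cells, was captured in 354 members and reached 235 CPM against 72.1 in Ly6c1-low and 64 in control LSECs, a log2 ratio of 1.71 (1.57 to 1.84). The secreted peptidase inhibitor gene Pi16 (38.8 against 8.88 CPM), the complement gene Cfb (38.8 against 12.6 CPM), the plasminogen activator gene Plat (21 against 6.32 CPM) and the apolipoprotein L gene Apol9a (81.1 against 28.6 CPM) were captured in 107, 154, 98 and 264 members. Leaving out the 5 members and the 5 Ly6c1-low LSECs with the most UMIs of each gene, a check chosen after the data had been seen, left the log2 ratio of Plac8 at 1.77 and that of Pi16 at 2.06.

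Igfbp3, Cxcl12, Ubd, Sparcl1, Ccl5 and Ehd2 had the largest ratios after removal of Ly6c1 from the ranking, yet few members carried them. The 5 members with the most UMIs held 96.4% of all Ccl5 UMIs in the set, 94.3% of those of the ubiquitin-like modifier Ubd and 62.8% of those of the chemokine Cxcl12. A single barcode held 80.6% of Ccl5. Without the top 5 barcodes of each set the log2 ratio of Ccl5 was −0.63, where it had been 2.79 with all barcodes. For comparison, the top 5 members held 2.83% of Ly6a and 6.26% of Irf7 UMIs. Other interferon-stimulated genes were less evenly spread, with 20.9% of Rsad2, 22.6% of Cxcl10 and 29% of Cxcl9 UMIs in the top 5 members of each gene.

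**Figure D4:**
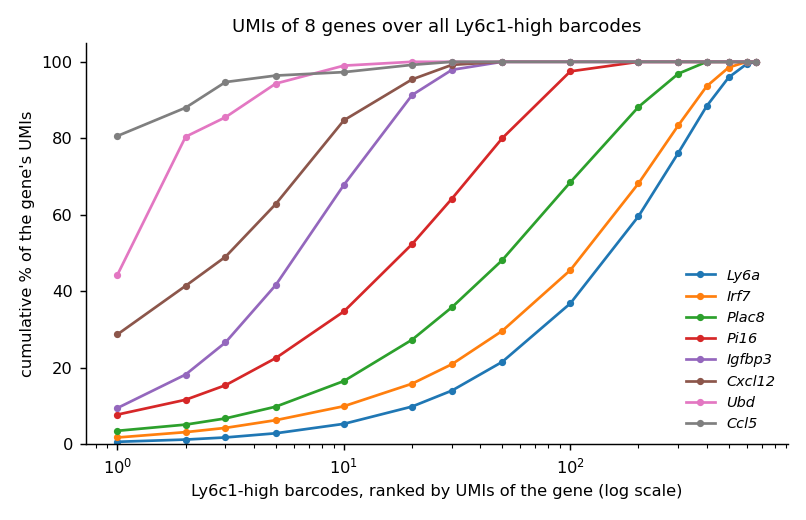
Cumulative percent of a gene's UMIs in the 664 Ly6c1-high LSECs, with barcodes ranked by their UMIs of that gene on a log axis. Ccl5 and Ubd reach 96.4% and 94.3% within 5 barcodes, whereas Ly6a reaches 2.83% and Plac8 9.79%.

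Igfbp3, Cxcl12 and Sparcl1 were captured together in a small subset of the members. UMIs of at least 2 of these 3 genes, a choice made after their values were seen, were found in 34 members (5.12%), 2 Ly6c1-low and 1 control LSEC. These 34 had a median of 7213.5 UMIs and a median Ly6c1 level of 1278.5 per 1000000. Beside the genes that chose them, they held more of the basement membrane collagen Col15a1 (206 CPM against 1.69 in the other 630 members), the laminin chain Lamb1 (235 against 3.1), the homeobox gene Meox1 (287 against 4.23), the cell cycle regulator Rgcc (328 against 4.65) and the connexin 43 gene Gja1 (251 against 12). They held less Clec4g (522 against 1847 CPM), Oit3 (247 against 1430 CPM), Mrc1 (194 against 684 CPM), Lyve1 (12.1 against 236 CPM) and Ly6a (2524 against 5784 CPM). Pecam1 (1388 against 816 CPM) and Kdr (2330 against 2572 CPM) were present in both, as was Irf7 (392 against 419 CPM), and the mesenchymal genes Col1a1, Col3a1, Lrat and Reln had 0 UMIs in the subset while the pericyte gene Rgs5 had 9. Without all barcodes that held at least 2 of the 3 genes, Ly6a and Irf7 kept log2 ratios over Ly6c1-low LSECs of 1.17 and 1.16, and Cxcl12 was at −1.47.

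The smallest ratios were those of Dsg2, Bicc1, Krt18, Cp, Tm4sf4, Spp1, Krt8, Ambp, Alcam, Ttr, C3 and Sorbs2, many of them genes of bile duct epithelium or hepatocytes. The desmosomal cadherin Dsg2 was at 0.136 CPM in the members and 39 CPM in Ly6c1-low LSECs, and the secreted Spp1 (osteopontin) at 7.22 against 286 CPM. The UMIs of cholangiocyte markers lay in few barcodes. Among Ly6c1-low LSECs, 9 carried at least 3 of 6 cholangiocyte markers and held 97.1% of the 2792 UMIs of these markers in that set, and 0 members did. Without such barcodes, the log2 ratio was −0.26 for Spp1, −0.18 for Krt18, −0.34 for Krt8 and −0.02 for Sorbs2, and it was 1.56 for Ambp and 0.57 for C3.

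Marker sums of other cell types were low in the members or came from single genes. Hepatocyte markers summed to 81.8 CPM in the members against 205 in Ly6c1-low and 269 in control LSECs, with none of 10 at 0. Stellate and mesenchymal markers summed to 8.45 against 15.9 and 10.6 CPM, with Dcn (set by the gate) and Lum at 0, and Kupffer cell markers to 107 against 103 and 80.3 CPM, with Adgre1 at 0 by the gate. Monocyte and neutrophil markers summed to 261 against 109.5 and 72.8 CPM, but Plac8 gave 1726 of these 1916 UMIs and Chil3 was at 0. T and NK cell markers summed to 74 against 13.3 and 4.33 CPM, and Ccl5 gave 525 of 543 UMIs, with Cd3e, Trbc2 and Il7r at 0. B cell markers summed to 5.18 against 5.59 and 3.39 CPM, with Cd79a at 0 by the gate. Their part in the ratios of interferon-stimulated genes was not tested beyond the alternative with at most 1 UMI of other cell types, in which the log2 ratio of Irf7 was 1.07.

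Within the Maf-negative LSECs of at least 5000 UMIs, the difference followed the amount of Ly6c1 and was not bound to the limit. Barcodes were placed in 6 bins, from no Ly6c1 UMI to at least 1600 per 1000000, holding 215, 276, 194, 282, 204 and 84 barcodes. Interferon-stimulated genes summed to 5457, 5908, 8024, 8430, 9958 and 14068 CPM from the lowest to the highest bin. Ly6a was at 1674, 2543, 3566, 4560, 6335 and 8282 CPM. Both thus stepped upwards at every bin. Single barcodes can weigh on such sums. Over all members the interferon-stimulated sum of a barcode had a median of 7981.6 and a maximum of 99147.5 CPM. In Ly6c1-low LSECs these were 5094.2 and 60000 CPM.

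Other genes followed the same order at the ends. From the bin without Ly6c1 to the highest bin, the class I MHC sum went from 7191 to 14213 CPM, Irf7 from 106 to 638, Plac8 from 58 to 455, Cyp26b1 from 94.3 to 419 and Cd34 from 272 to 543 CPM. Flrt2, whose product is a guidance and adhesion protein counted here among profibrotic angiocrine factors, went from 131 to 369 CPM. Hspb1 went from 432 to 872 CPM. In the opposite direction Lyve1 went from 443 to 138 CPM, Egr1 from 478 to 141, Abcc9 from 123 to 23.6, Aplnr from 91 to 16.4 and Kcne3 from 65.1 to 8.21 CPM. The median mitochondrial share went from 4.56% to 3.09%, and its part in these trends was not tested.

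**Figure D5:**
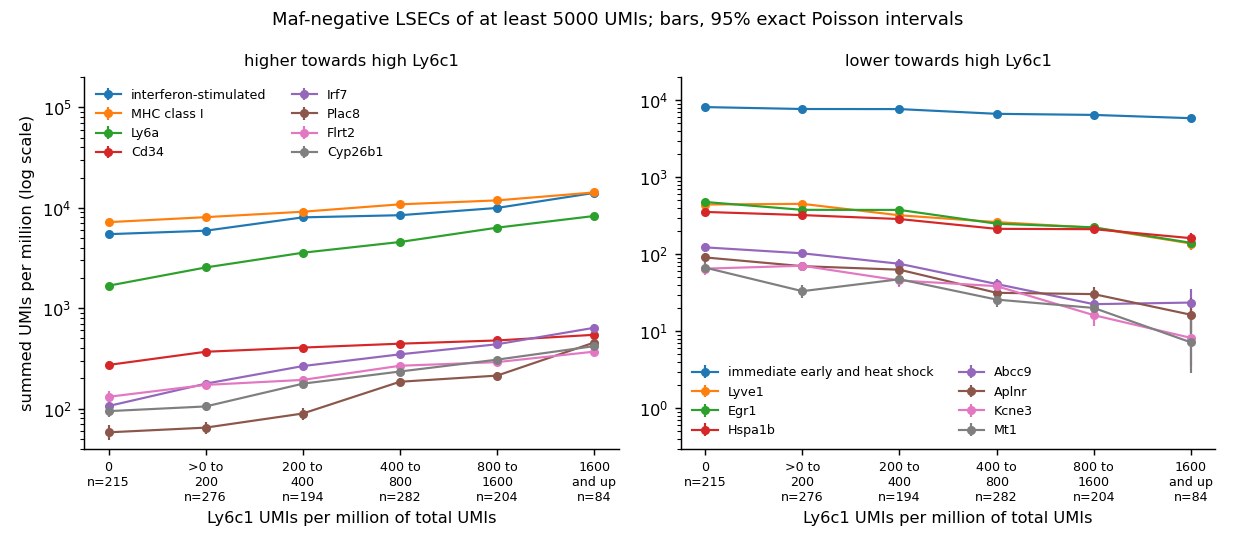
Summed UMIs per 1000000 (log scale) with 95% exact Poisson intervals in 6 bins of Ly6c1 per 1000000, for Maf-negative LSECs of at least 5000 UMIs (215, 276, 194, 282, 204 and 84 barcodes). The interferon-stimulated sum climbs from 5457 to 14068 CPM and Ly6a from 1674 to 8282 CPM, whereas Lyve1 drops from 443 to 138 CPM and Kcne3 from 65.1 to 8.21 CPM.

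Ranked by likeness, the genes nearest to Ly6c1 were again of this kind. Over 1410 Maf-negative LSECs thinned to 3000 UMIs and 7309 genes, Spearman's rho with Ly6c1 was highest for Ly6a (0.49), followed by the antiviral membrane protein Ifitm3 (0.35), H2-D1 (0.34), Ly6e (0.34), the MHC light chain B2m (0.31), H2-K1 (0.30), the virus tether Bst2 (0.30), Irf7 (0.28), the actin-binding Tmsb4x (0.25) and Rsad2 (0.25). The lowest values were −0.21 for Gm42418, −0.20 for Lars2, −0.15 for Pcdh17, −0.14 for Btnl9 and −0.14 for Abcc9. These are descriptions over barcodes that share 1 library, the same free RNA and a fixed depth, and most are weak.

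Among the members themselves, 3 of the 10 genes with the most uneven counts were interferon-stimulated, namely Cxcl9, Rsad2 and Cxcl10. The variance over the mean of thinned counts had a median of 1.07 over 4535 genes and was largest for Ccl5 (103), the nuclear RNA Malat1 (57.1), Gm42418 (37.5), Cxcl9 (13.6), the fatty acid carrier Fabp4 (12.7), Rsad2 (10.3), Igfbp3 (10), Cxcl10 (9.82), Cxcl12 (7.57) and the haem oxygenase gene Hmox1 (7.1). Irf7 had quartiles of 122, 339 and 579 CPM over members and 0, 67.5 and 280.5 CPM over Ly6c1-low LSECs. The lower quartile of the members thus lay within the range of Ly6c1-low LSECs.

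The same split at 400 per 1000000 was then made in barcodes of the Maf LSEC-KO library that the rule had left out, as cells it did not use. Among 794 Maf-negative LSECs with a Mki67 or Top2a UMI, 306 were Ly6c1-high, and Ly6a was at 4839 against 2219 CPM (log2 ratio 1.12) and the interferon-stimulated sum at 8478 against 6216 CPM. Among endothelial barcodes with a Vwf UMI, 428 were Ly6c1-high and 655 were not, with 6436 against 2696 CPM of Ly6a (log2 ratio 1.26) and an interferon-stimulated sum of 8837 against 6089 CPM. With 1 Maf UMI the split was 74 to 111 barcodes, and the sum was 9370 against 6232 CPM. With at least 2 Maf UMIs it was 33 to 213 barcodes, and the sum was 7733 against 5895 CPM, with Ly6a at 5556 against 1510 CPM and Cd34 at 462 against 116 CPM. The direction of these values was that seen in the members, and Lyve1 was lower in each set (log2 ratio −0.69 in cycling, −0.36 with 1 Maf UMI, −1.17 in Vwf-positive and −2.22 in Maf-positive barcodes). In the Maf-positive barcodes, however, the split also separated the sinusoidal sum (15096 against 28257 CPM, log2 ratio −0.90) and Dnase1l3 (295 against 1798 CPM). In the members the log2 ratio of that sum was −0.05. The immediate early and heat shock sum was at 0.05 in the Maf-positive barcodes and −0.27 in the members.

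Of the 12 genes with the largest ratio in the members, those other than Ly6c1 were followed where both sides of a split held more than 3 UMIs. The log2 ratio was above 0 for 8 of 10 in cycling LSECs, 5 of 6 in LSECs with 1 Maf UMI, 5 of 6 in LSECs with at least 2 Maf UMIs and 10 of 11 in Vwf-positive barcodes. In control LSECs too few barcodes held Ly6c1 for the same limit, so the 132 with any UMI were set against the 3853 without. Ly6a was at 2718 against 1042 CPM (log2 ratio 1.38), Plac8 at 238 against 56.2 CPM, and the interferon-stimulated sum at 6368 against 5368 CPM. There, 6 of 7 genes with enough UMIs were above 0. The 12 genes with the smallest ratio had no clear side there, with 3 of 5 above 0 and all 5 intervals spanning 0. In each Maf LSEC-KO set all of them with enough UMIs were below 0. These were 7 genes in cycling LSECs, 3 with 1 Maf UMI, 1 with at least 2 Maf UMIs and 11 in Vwf-positive barcodes. Among LSECs with at least 2 Maf UMIs, 1 barcode held 97.2% of the cholangiocyte marker UMIs. The immediate early and heat shock sum had a log2 ratio of 0.15 in control LSECs, against −0.27 in the members, and class I MHC one of 0.07, against 0.52. The 132 barcodes were also deeper, with a median of 10839.5 against 8297 UMIs.

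Against control LSECs the members showed the whole range of differences between the libraries. Of 7459 genes with at least 20 CPM in either set, 600 (8.04%) were at least 2-fold higher and 392 (5.26%) at least 2-fold lower, with a median log2 ratio of 0.10. With all UMIs as the denominator, which includes the ribosomal protein genes that took 17.6% of UMIs in members and 7.15% in control LSECs, 351 were higher and 536 lower and the median was −0.11. The share of higher among called genes was 60.5% in the first and 39.6% in the second case, so small ratios to control have no firm side.

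The scavenger and sinusoidal genes were low against control. Of 22 measured, 16 were at least 2-fold lower and 1 higher, with a median log2 ratio of −1.43. Dnase1l3 was 388-fold lower (9.4 against 3652 CPM), Fcgr2b 17.1-fold (147 against 2522 CPM) and Stab2 15.9-fold (103 against 1639 CPM). Lyve1 was 3.1-fold lower. Maf-positive LSECs of the same library were between the sets for Dnase1l3 (1514 CPM), Fcgr2b (1194 CPM) and Stab2 (834 CPM). Oit3, with 1390 against 1452 CPM, and Gata4, with 226 against 253 CPM, were within 2-fold, and so was Clec4g at a log2 ratio of −0.76. The pericentral ligand genes Wnt2 (35.6 against 286 CPM) and Rspo3 (3.13 against 74.4 CPM) and the receptor gene Kit (43.5 against 366 CPM) were also lower, among 6 of 8 pericentral genes at least 2-fold lower and 0 higher.

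Among the genes higher than in control LSECs, 10 of 12 profibrotic angiocrine genes were at least 2-fold higher and 0 lower, with a median log2 ratio of 2.50. The platelet-derived growth factor gene Pdgfb was at 151 against 13.3 CPM (log2 ratio 3.50) and at 129 CPM in Ly6c1-low LSECs, and Esm1 at 92.7 against 13.8 CPM. Flrt2 was at 285 against 59.7 CPM and, unlike Pdgfb, also past 1.5-fold over Ly6c1-low LSECs (167 CPM). Of the 12 genes, 3 were past 1.5-fold over Ly6c1-low LSECs (Flrt2, Sparcl1 and Cxcl12, the last pair held mostly by the 34 barcodes described) and 1, Esm1, was lower. Of 20 capillary genes other than Ly6c1, 10 were at least 2-fold higher than in control and 3 lower, namely Aqp1, Cldn5 and Cd300lg. Of 29 interferon-stimulated genes 16 were higher and 0 lower, with a median log2 ratio of 1.01.

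The largest single ratios over control, other than those of Sparcl1 and Igfbp3, were of genes close in level between members and Ly6c1-low LSECs or higher in the latter. Pcp4l1 was at 704 CPM in the members, 635 in Ly6c1-low and 2.36 in control LSECs, Fcor at 1065, 1007 and 4.11 CPM and the muscarinic receptor Chrm3 at 60.8, 67.7 and 0.22 CPM. Sh3gl3 and Lrrc55 had no UMI in control LSECs, and with 3 counts in their place were at least 279-fold and 237-fold higher. For Aplnr, with 2 control UMIs, the log2 ratio was 8.83 (6.96 to 11.89), and Gm47405 and Uck2 had 1 and 2 control UMIs. Besides Maf, which the rule set to 0 in members, and Dnase1l3, the smallest ratios included those of the globin genes Hba-a1, Hba-a2, Hbb-bs and Hbb-bt and of Sema3d, Rerg and Gpc1. Erythroid markers summed to 5.86 CPM in members, 18.5 in Ly6c1-low and 1295 in control LSECs. In Maf-positive LSECs of the Maf LSEC-KO library they summed to 4308 CPM. Under 14 alternative settings the log2 ratio to control was −8.24 to −0.61 for Hbb-bt and −8.61 to −2.25 for Hbb-bs. It was −7.81 to −2.49 for Hba-a1 and −9.20 to −4.85 for Hba-a2. The part of erythroid RNA in other ratios to control was not tested.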

How the data were processed

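The authors sequenced 1 3′ library per genotype, each from a pool of 3 mice, after collagenase digestion, a Nycodenz gradient and CD146 magnetic selection. The deposited matrices hold raw UMI counts, not normalized, of 32285 genes in barcodes with 500 UMIs or more. The submitters' processing notes name Cell Ranger 6.0.2, Seurat 5.0.1 and mm10. The correction by empty droplets described for the study was not applied here. The libraries held 89872764 (Maf LSEC-KO) and 47681895 (control) UMIs.

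Barcodes were gated as the report describes, with no clustering and no doublet removal beyond the gate. Removal by Scrublet score (scanpy 1.11.5), at expected rates of 5.67% and 4.53%, took 11 members, 10 Ly6c1-low and 178 control LSECs and was an alternative. UMIs were summed over the barcodes of a set and divided by the UMIs of all genes but 13 mitochondrial and 83 ribosomal protein ones. Genes of at least 20 CPM in either set were compared, a gene was counted past 1.5-fold (Ly6c1-low) or 2-fold (control), and a count of 0 was given 3 counts. Control LSECs passed the same gate with Vwf, Mki67 and Top2a at 0 and no condition on Maf or Ly6c1. Intervals are exact Poisson, binomial conditional on the sum for ratios, and Clopper-Pearson for shares, at 95% (scipy 1.17.1, numpy 2.4.6, pandas 2.3.3, Python 3.11.15). Ratios and their intervals were tried on simulated Poisson counts. These held no variation between barcodes, so the trial covered counting error only.

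Genes named are the 12 largest and 12 smallest ratios to Ly6c1-low, the 10 largest and 10 smallest to control LSECs, the 10 most dispersed and the 10 most like Ly6c1, and at most 6 members from each list. One gene named by this rule is not reported here. Beyond this rule, further carriers in the subset of 34 members, the potassium channel subunits Abcc9 and Kcnj2 and genes of the promoter and marker checks are named, chosen after their values were seen. The members and lists were chosen with earlier results of these data known. Gene positions are from GENCODE M21 on GRCm38 and promoters from RefSeq. Bulk RNA-seq and ATAC-seq were not used here.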

Additional observations from a re-analysis of the deposited data

How the results depend on the processing

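With 1 library per genotype no spread between mice can be given, and low counts limit Igfbp3, Plat and similar genes. No paired analysis was possible because each genotype has 1 library. The number of members was 333 at a Ly6c1 limit of 800 per 1000000, 428 with at most 1 UMI of other cell types, and 382 with further cell cycle genes at 0. The share with Ly6a and Cd34 was 95.4% at 5000 or more UMIs and 60.1% after thinning. Genes higher and lower than in Ly6c1-low LSECs were 321 and 370 after thinning (fewer counts), 312 and 415 against Ly6c1-low LSECs without a Ly6c1 UMI, 84 and 39 with a filter of 50 CPM, 288 and 404 with 5 CPM, and 68 and 51 when the interval had to pass the fold. Lower genes alone were 175 with the mean over barcodes and 181 with further cell cycle genes at 0, and the cause was not tested. Against control, 351 were higher with all UMIs as denominator, 342 with 50 CPM, and 1016 higher and 610 lower with 5 CPM.

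With at most 1 UMI of other cell types the log2 ratio to Ly6c1-low was −0.78 for Ccl5, 0.22 for Cp, 0.63 for Ambp and 1.22 for C3. Among 3 alternatives chosen after seeing the data, it was −1.47 for Cxcl12 without the Sparcl1, Igfbp3 and Cxcl12 barcodes, 1.56 for Ambp and 0.57 for C3 without cholangiocyte-marked barcodes, and −0.63 for Ccl5 without the 5 top barcodes. In 14 alternatives each, the log2 ratio to Ly6c1-low was 1.08 to 1.76 for Ly6a, 0.97 to 1.80 for Irf7, 0.37 to 0.76 for Cd34, −0.87 to −0.63 for Lyve1 and 0.50 to 0.81 for the interferon-stimulated sum. Over all 91 named ratios to Ly6c1-low or control LSECs and 1272 values under the alternatives, 9 had the opposite sign, the 8 given above and Hmox1, at −0.49 with a limit of 800 per 1000000 against 0.41.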
